A study of Mus musculus with 12 samples.

Results

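The comparison described here asks whether loss of Zbtb24 changes gene expression by a different ratio in marginal zone (MZ) than in follicular (FO) B cells. It was made over all genes of the count table from 12 of the 12 libraries, as the log2 CKO effect in MZ (CKO against control) minus the log2 CKO effect in FO, with each animal kept as a block. The control mice carried VAVcre, a Cre recombinase driven by a Vav promoter active in blood-forming cells, and are labelled WT. The conditional knockout (CKO) mice carried VAVcre together with a Zbtb24 allele and are labelled Zbtb24-/-. All 6 mice were C57BL/6, aged 8 to 12 weeks, and gave splenic B cells separated with a magnetic kit for MZ and FO B cells. There were 3 libraries in each of the 4 groups, control and CKO of either subset. Each of the 6 animal numbers in the labels occurs once among FO and once among MZ libraries, and that such a pair came from 1 mouse is read from these numbers. Because Vav-driven Cre acts in blood-forming cells, T cells and myeloid cells of the CKO mice can carry the deletion too, and the Cre is active before B cells become FO or MZ cells.

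ZBTB24 is a zinc finger protein that binds DNA and activates a small set of genes, among them Cdca7. CDCA7 works with the chromatin remodeller HELLS, and ZBTB24, CDCA7, HELLS and the DNA methyltransferase DNMT3B are genes mutated in ICF syndrome, an immunodeficiency with low antibody levels and centromere instability. FO B cells recirculate through lymphoid follicles and make most T cell-dependent antibody responses. MZ B cells stay next to the marginal sinus of the spleen, depend on Notch2 signals and respond quickly to blood-borne antigens. In the terms used below, a positive difference of effects means that the ratio of CKO to control was higher in MZ than in FO, which for a gene that fell means a smaller fall in MZ.

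Genes with the reported ZBTB24 sequence are set here beside 1 without it. Promoters are shown for Cdca7 and Mcoln3, whose difference of effects passed the test, and for Taf6 and Rnf187, whose difference did not. They are RefSeq windows on GRCm38.p6 from 250 bases before to 50 bases after the transcription start, read 5′ to 3′ on the strand of the gene. Capitals mark each CAGGACCT, or its reverse complement AGGTCCTG, the core of the sequence reported for ZBTB24. Both strands were searched, the motif overlaps no other motif searched, and 653 of 32851 such windows (1.99%) hold it. The Cdca7 window is chr2:72475969-72476268 on the plus strand, with the match at position -89 from the start. The Taf6 window is chr5:138187177-138187476 on the minus strand, with matches at -180 and -14. The Rnf187 window is chr11:58938857-58939156 on the minus strand, with a match at -60. The Mcoln3 window is chr3:146121541-146121840 on the plus strand, inside the span that Gencode gives the gene, and these letters are not in it.
Cdca7: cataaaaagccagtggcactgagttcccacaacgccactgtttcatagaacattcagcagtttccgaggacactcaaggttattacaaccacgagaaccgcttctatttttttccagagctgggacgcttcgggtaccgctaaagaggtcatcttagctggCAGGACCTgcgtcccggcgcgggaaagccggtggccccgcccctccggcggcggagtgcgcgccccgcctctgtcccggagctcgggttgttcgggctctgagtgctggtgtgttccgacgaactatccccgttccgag
Taf6: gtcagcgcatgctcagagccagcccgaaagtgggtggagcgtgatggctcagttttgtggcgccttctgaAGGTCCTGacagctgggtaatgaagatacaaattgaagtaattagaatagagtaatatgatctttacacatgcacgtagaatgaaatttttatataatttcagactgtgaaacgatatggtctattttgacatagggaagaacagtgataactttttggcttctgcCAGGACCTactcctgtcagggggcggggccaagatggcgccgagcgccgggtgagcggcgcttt
Rnf187: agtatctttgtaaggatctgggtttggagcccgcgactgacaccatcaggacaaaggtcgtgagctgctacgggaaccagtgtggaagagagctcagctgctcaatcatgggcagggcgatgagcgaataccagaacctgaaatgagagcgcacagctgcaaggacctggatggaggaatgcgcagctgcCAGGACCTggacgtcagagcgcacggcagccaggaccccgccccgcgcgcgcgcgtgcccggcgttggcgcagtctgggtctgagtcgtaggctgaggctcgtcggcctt
Mcoln3: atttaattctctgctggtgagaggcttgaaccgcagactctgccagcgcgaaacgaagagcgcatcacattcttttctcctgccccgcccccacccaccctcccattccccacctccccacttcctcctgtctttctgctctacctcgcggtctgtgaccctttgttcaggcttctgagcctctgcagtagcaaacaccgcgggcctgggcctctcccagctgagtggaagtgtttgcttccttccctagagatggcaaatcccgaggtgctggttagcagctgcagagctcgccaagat
A match is a description of the letters and not a measured binding site. Of 18 genes looked up, 12 were in the RefSeq table. Hist1h4a and Hist1h4j, whose difference of effects also passed, were not in it, so their promoters were not searched. Cdc40 also had matches, at -161 and 2 in chr10:40883094-40883393, and a second Taf6 window had none. The single windows of Map7, Axin2, Hepacam2 and Zbtb24 and both windows of Prepl had no match, and 1 window each of Dtnb and Adk had 1.

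Gene counts summed to between 36340116 and 44629250 per library, and entries that name no gene held 43.2 to 50.4% of all counted entries. Zbtb24 itself was at 62.5, 60.8 and 60.8 CPM (read counts relative to the library size after TMM scaling) in FO controls against 48.3, 46.9 and 50 CPM in FO CKO libraries. MZ libraries held 49.1, 53 and 54.4 CPM in controls and 46.4, 41.8 and 41.9 CPM in CKO animals. Within each subset the CKO libraries were all under the controls, but the reads cover the whole gene and do not separate the deleted part from the rest, so these levels check the labels only weakly. The difference of effects for Zbtb24 was 0.08 (95% interval -0.11 to 0.26; edgeR adjusted p = 0.9132). The subset labels held in both genotypes by 1 marker gene of each subset and by the summed markers, though not by every marker. Cd1d1, a lipid-presenting molecule high on MZ B cells, was at 46.9 CPM in FO and 226 CPM in MZ controls, and at 57.9 and 238 CPM in CKO libraries. Fcer2a, the CD23 gene of FO B cells, was at 558 and 69.6 CPM in controls and at 547 and 81.6 CPM in CKO libraries. The sum of 18 FO B cell markers differed less. It was 8060 to 8500 CPM in FO and 6350 to 6760 CPM in MZ controls. In CKO libraries it was 7950 to 9110 CPM in FO and 5860 to 7290 CPM in MZ. The complement receptor gene Cr2, on that list, went the other way, at 844 CPM in FO and 3310 CPM in MZ controls. The MZ marker sums are given further below. In such bulk RNA, fewer cells of a type and less RNA per cell cannot be told apart.

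Few genes were called for a difference in CKO effect between the subsets. Of 18546 genes tested with edgeR's quasi-likelihood test, 4 passed at an adjusted p under 0.05 (0.0216%), 3 with a higher and 1 with a lower ratio in MZ. Cdca7 and the histone H4 genes Hist1h4a and Hist1h4j were the higher genes, and Mcoln3 was the lower. At an unadjusted p under 0.05 there were 968 genes (5.22%), 480 higher (2.59%) and 488 lower (2.63%). The same fit called 7343 genes (39.6%) for MZ against FO in control mice and 6837 (36.9%) in CKO mice. The CKO effect itself was called for 18 genes in FO (0.0971%) and 16 in MZ (0.0863%), from a fit of the 4 group means without the animal. Over all genes the difference of effects had a median of 0.001 on the log2 scale, with the middle 50% between -0.16 and 0.11. Its median standard error (SE) was 0.17 with the animal as a block and 0.24 without it. Without the block, edgeR called 0 genes (238 at an unadjusted p under 0.05), and limma-voom with the block also called 0 (984 unadjusted).

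**Figure D1:**
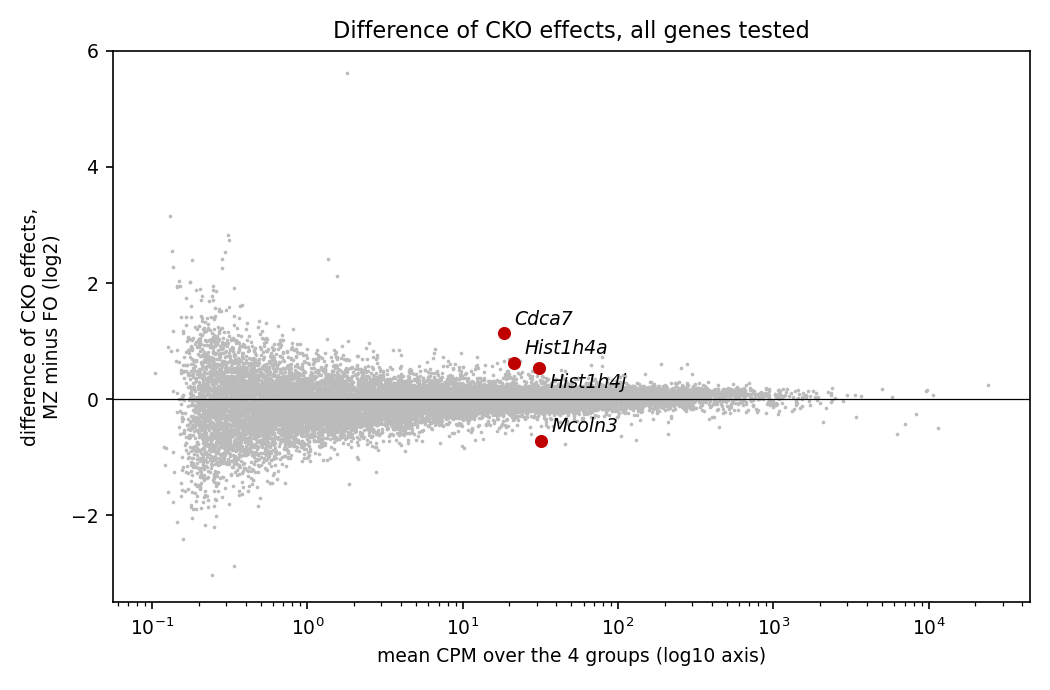
Difference of CKO effects (MZ minus FO, log2, vertical axis) of each of 18546 genes against its mean CPM over the 4 groups (horizontal log10 axis); red points passed at an adjusted p under 0.05. The 4 called genes lie at 1.14, 0.63, 0.54 and -0.72, while genes below 1 CPM scatter widely on both sides of 0. Genes that were not called can lie as far out, such as Nebl at -0.78.

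Cdca7 (chr2:72476159-72486893) stood at a small part of its control level in CKO B cells of both kinds, and that part was larger in MZ. FO controls held 31.7, 33.8 and 32.4 CPM, against 1.01, 2.64 and 0.55 CPM in FO CKO animals. The MZ libraries held 33.1, 42.4 and 33.7 CPM in controls and 2.76, 5.37 and 1.88 CPM in CKO libraries. The groups did not overlap within either subset, and in every CKO animal the MZ library held more Cdca7 than the FO library. The CKO level was 3.08, 8.10 and 1.69% of the control mean in FO and 7.57, 14.7 and 5.16% in MZ, for CKO replicates 1, 2 and 3. CKO replicate 2 had the highest residual level in each subset.

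The CKO effect on Cdca7 was -4.54 on the log2 scale in FO (SE 0.51, edgeR adjusted p = 0.02376) and -3.45 in MZ (SE 0.48, adjusted p = 0.08766), so it passed in FO only in that fit. Their difference was 1.14 (SE 0.18, 95% interval 0.78 to 1.5, edgeR adjusted p = 0.002535). Within animals, MZ minus FO was 0.07, 0.33 and 0.06 log2 CPM in the controls and 1.44, 1.02 and 1.75 in the CKO animals. The lowest CKO animal lay above the highest control, as for 936 of all genes (5.05%), and the exact two-sided permutation p was 0.1, the smallest that 3 animals against 3 allow. On the linear scale the CKO mean minus the control mean was -31.2 CPM in FO and -33.1 CPM in MZ, and the within-animal CPM differences overlapped (exact permutation p = 0.9). The ratios rested on the level left in CKO libraries, which was 45, 105 and 21 reads in FO CKO and 111, 211 and 68 reads in MZ CKO libraries. Cdca7 passed in each of the 6 fits that left out 1 animal (adjusted p 0.0009288 to 0.04401).

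Mcoln3 (chr3:146117450-146141806), which encodes the endolysosomal cation channel TRPML3, was higher in MZ than in FO B cells and higher in CKO than in control B cells of both kinds, with the larger ratio in FO. FO controls held 9.70, 10.4 and 8.49 CPM, against 20.9, 21.7 and 21.8 CPM in FO CKO animals. MZ control libraries held 39.6, 44.4 and 37.7 CPM and MZ CKO libraries 61.3, 54.3 and 51.1 CPM. The 4 groups did not overlap and stood in the order FO control, FO CKO, MZ control and, highest, MZ CKO.

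The CKO effect on Mcoln3 was 1.17 in FO (SE 0.10, edgeR adjusted p = 3.734e-05) and 0.45 in MZ (SE 0.09, adjusted p = 0.1495). Their difference was -0.72 (SE 0.11, 95% interval -0.94 to -0.50, edgeR adjusted p = 0.002535). The within-animal MZ minus FO difference was 2.03, 2.09 and 2.15 log2 CPM in controls and 1.55, 1.33 and 1.23 in CKO animals, with no overlap (exact permutation p = 0.1; 5.36% of all genes had every CKO animal below every control). On the linear scale the order turned. The mean rose by 11.9 CPM in FO and was 15 CPM higher in MZ CKO than in MZ control libraries, and the within-animal CPM differences overlapped (exact permutation p = 0.6). Mcoln3 passed in each fit without 1 animal (adjusted p 0.001207 to 0.04217). Its relatives, chosen after their values were seen, did not pass. Mcoln2, the neighbouring family member, was at 39.6 and 64 CPM in FO control and CKO and at 70.4 and 97.8 CPM in MZ (difference -0.22, adjusted p = 0.8955), and Mcoln1 had a difference of -0.17 (adjusted p = 0.8955).

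Map7, whose product binds microtubules, had a pattern like that of Mcoln3 but its difference missed the threshold. It was at 3.71, 3.52 and 4.32 CPM in FO controls, 14.6, 13.0 and 12.1 CPM in FO CKO, 10.9, 9.09 and 9.87 CPM in MZ control and 25.4, 20.1 and 17.5 CPM in MZ CKO libraries. Every CKO library lay above every control library of its subset. Map7 rose in both subsets (log2 1.78 in FO, edgeR adjusted p = 3.739e-05; 1.08 in MZ, adjusted p = 0.004453), and the difference was -0.71 (95% interval -1.01 to -0.41, adjusted p = 0.1015). On the linear scale the gains were 9.37 CPM in FO and 11.1 CPM in MZ. Map7 lies on chromosome 10 (chr10:20148471-20281590), as does Zbtb24.

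**Figure D2:**
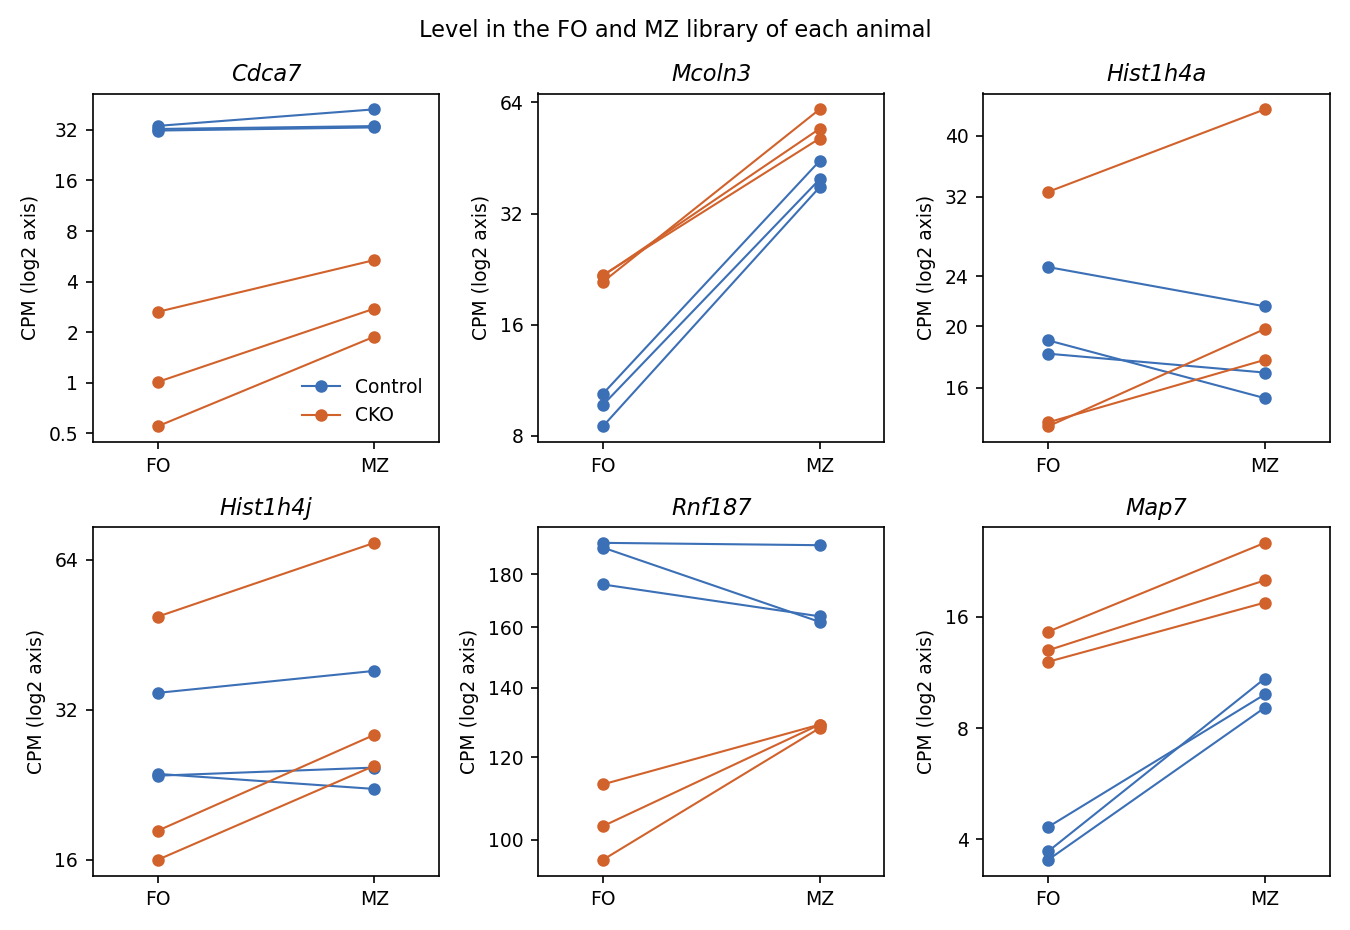
CPM on a log2 axis in the FO and the MZ library of each animal (joined by a line), blue for 3 control and orange for 3 CKO animals, in 6 genes. Cdca7 lines rise from FO to MZ in CKO animals and stay nearly level in controls, Mcoln3 and Map7 lines are steeper in controls, and Hist1h4a, Hist1h4j and Rnf187 rise in the CKO animals.

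The 2 histone genes called encode histone H4, a core histone made in S phase, and both lie in the histone cluster of chromosome 13 (Hist1h4a at chr13:23760692-23761230 and Hist1h4j at chr13:21735064-21735837). Hist1h4a was at 19.0, 24.8 and 18.1 CPM in FO controls, against 13.9, 32.6 and 14.1 CPM in FO CKO animals. The MZ libraries held 15.4, 21.5 and 16.9 CPM in controls and 19.8, 44.0 and 17.7 CPM in CKO libraries. CKO replicate 2 stood far above the other CKO animals in both subsets, so the genotypes overlapped in FO and in MZ, and what separated them was the step from FO to MZ within an animal.

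That step was -0.30, -0.21 and -0.10 log2 CPM in the controls and 0.51, 0.43 and 0.33 in the CKO animals for Hist1h4a (difference 0.63, SE 0.11, edgeR adjusted p = 0.02964). For Hist1h4j it was -0.10, 0.15 and 0.05 in the controls and 0.64, 0.49 and 0.63 in the CKO animals (difference 0.54, SE 0.10, adjusted p = 0.04818). Neither gene had a called CKO effect in FO or in MZ (adjusted p = 0.9999 in FO and 0.9996 in MZ for each). Hist1h4a passed in 2 of the 6 fits without 1 animal, those without Control replicate 3 or CKO replicate 3. Hist1h4j passed in 3, those without Control replicate 2, CKO replicate 2 or CKO replicate 3. The H4 genes encode the same protein from near-identical coding sequences, so reads can be split among copies or dropped, and their single levels are uncertain.

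The replication-dependent histone genes are a list added after values were seen because of these 2 called genes, which its counts include. Of its 56 genes tested, 52 had a positive difference of effects, against 9305 of 18546 genes in all, and the median was 0.23. The 2 named genes passed (0.0216% of all genes did), and 18 had an unadjusted p under 0.05, all higher, against 2.59% of all genes. In 15 the within-animal step from FO to MZ was greater in every CKO animal than in every control, against 5.05% of all genes. The median CKO effect was 0.04 in FO and 0.28 in MZ. Hist1h2bl, an H2B gene chosen after its values were seen, came closest among the rest (0.58, edgeR adjusted p = 0.5555).

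Cell cycle genes had mostly positive differences with no member past the test. Of 22 tested, 20 had a positive difference (median 0.32), edgeR called 0 after adjustment, and 11 had an unadjusted p under 0.05, all higher, against 2.59% of all genes. In 7 the within-animal step from FO to MZ did not overlap between the genotypes and was greater in CKO animals, against 5.05% of all genes. Mcm4, a subunit of the replicative helicase, was at 79.5, 82.7 and 86.5 CPM in FO controls, 71.8, 97.5 and 67.9 CPM in FO CKO, 69.4, 89.7 and 80.4 CPM in MZ control and 95.9, 118 and 76.7 CPM in MZ CKO libraries (difference 0.35, adjusted p = 0.5555). The genotypes overlapped in each subset, while the MZ library exceeded the FO library in all 3 CKO animals and in 1 of 3 controls. Among the genes outside the lists with the smallest p in this direction, other than Rnf187 and Shisa8 below, were the DNA ligase gene Lig1 (0.48, adjusted p = 0.2998), the DNA repair gene Fancd2 (0.73, 0.3778), the condensin gene Ncapd2 (0.37, 0.4297) and the tubulin gene Tuba1b (0.42, 0.2998). Uhrf1, which brings the maintenance methyltransferase to newly made DNA, had a difference of 0.48 (adjusted p = 0.8183). Among the DNA methylation machinery 0 of 14 genes were called, 2 had an unadjusted p under 0.05, and the median was 0.03.

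One animal moved with these genes. The summed level of the 22 cell cycle genes was 836, 944 and 797 CPM in FO controls, against 728, 1330 and 683 CPM in FO CKO animals. In MZ it was 796, 1110 and 788 CPM in control and 1010, 1690 and 814 CPM in CKO libraries. CKO replicate 2 had the highest sum in each subset, and the sum was higher in MZ than in FO in each CKO animal and in Control replicate 2. Without that animal the list median was 0.38, and without each other animal it lay between 0.23 and 0.44. The summed neutrophil markers, 14 genes, were likewise highest in CKO replicate 2, at 506 CPM against 169 and 282 CPM in the other FO CKO libraries and at 312 CPM against 97.3 and 164 CPM in the other MZ CKO libraries. Their part in the histone and cell cycle result was not tested.

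**Figure D3:**
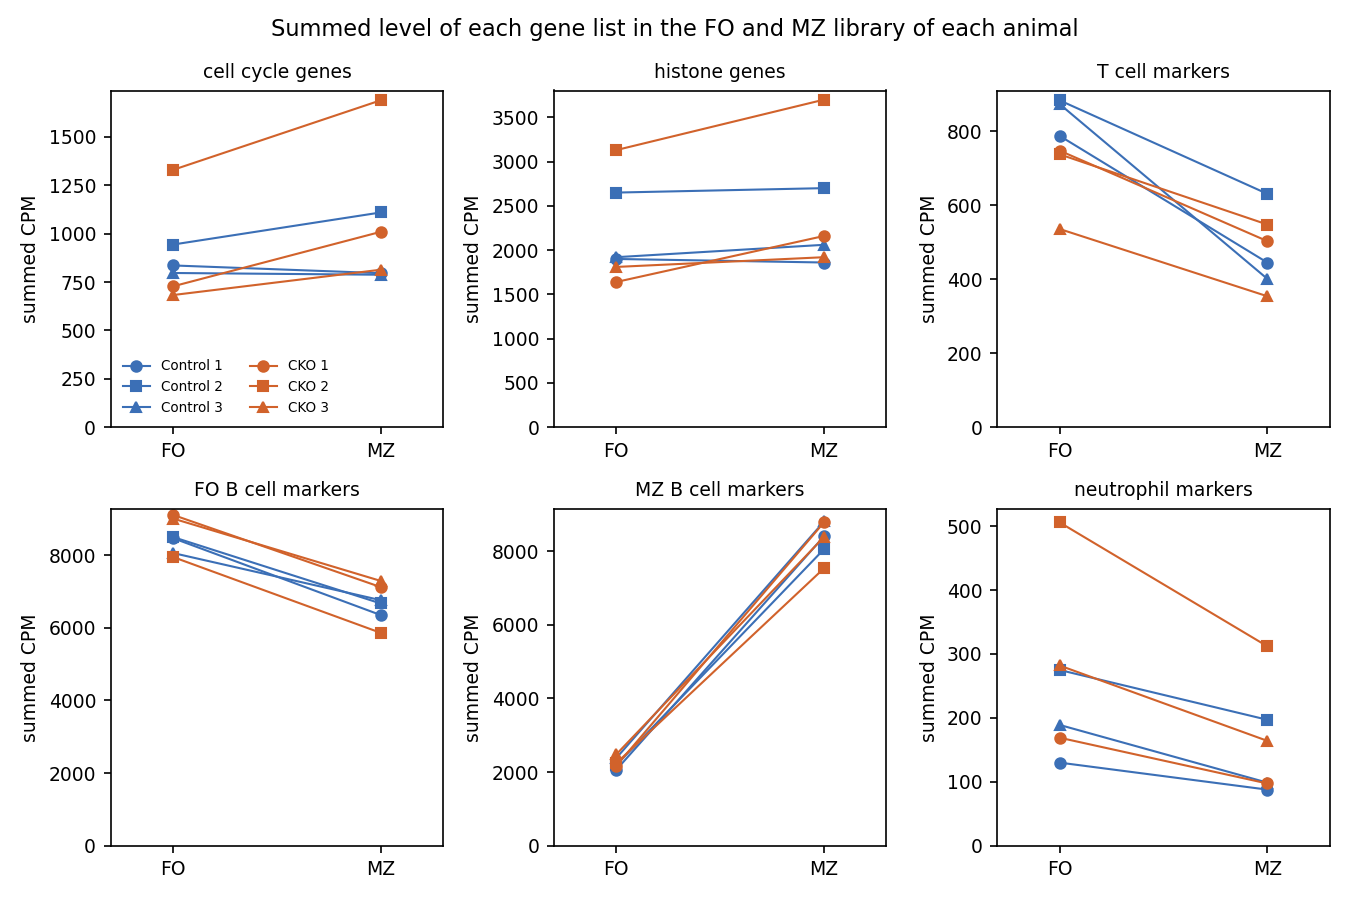
Summed CPM of 6 gene lists in the FO and the MZ library of each animal (joined by a line), with colour for genotype and the marker shape for the replicate number. Cell cycle and histone sums rise from FO to MZ in all 3 CKO animals with CKO replicate 2 on top. The cell cycle sum also rises in Control replicate 2, and the histone sum in Control replicates 2 and 3. T cell sums fall from FO to MZ in all 6 animals, and MZ marker sums overlap between genotypes.

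Of 8 reported ZBTB24 targets, 6 were called lower in CKO libraries of FO (0.0431% of all genes were) and 3 in those of MZ (0.0324%), and 1, Cdca7, had a called difference between the subsets. It was also the only one called of the 4 ICF genes. The median difference of the 8 was 0.21, and 6 were positive. Rnf187, which encodes a ubiquitin ligase, was at 191, 176 and 193 CPM in FO controls, against 95.6, 103 and 113 CPM in FO CKO animals, and at 162, 164 and 192 CPM in MZ control and 128, 129 and 129 CPM in MZ CKO libraries. The groups did not overlap within a subset, and the CKO libraries of MZ lay above those of FO. Its CKO effect was -0.85 in FO (edgeR adjusted p = 7.304e-05) and -0.42 in MZ (adjusted p = 0.07815), and the difference of 0.43 (95% interval 0.25 to 0.61) missed the threshold at an adjusted p of 0.1013. DESeq2 called it (adjusted p = 0.0347). On the linear scale Rnf187 lost 83.2 CPM in FO, and its MZ mean was lower by 43.9 CPM, with no overlap of the within-animal differences.

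Taf6, a TFIID subunit gene, fell in both subsets. It was at 37.7, 38.4 and 34.1 CPM in FO controls, 17.8, 16.7 and 17.4 CPM in FO CKO, 35.2, 37.1 and 34.0 CPM in MZ control and 21.3, 19.9 and 20.6 CPM in MZ CKO libraries. The FO CKO libraries were below all MZ CKO libraries while the controls of both subsets overlapped. The within-animal step was -0.10, -0.05 and -0.01 log2 CPM in controls and 0.26, 0.25 and 0.25 in CKO animals. The difference was 0.30 (95% interval 0.10 to 0.51, unadjusted p = 0.005672) and did not pass (edgeR adjusted p = 0.8838). Ap4m1 is annotated on the opposite strand across part of Taf6, and no source used here gives the strand setting of the counting.

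The other targets had intervals that reach 0. Axin2, a negative regulator of Wnt signalling, was at 7.96, 7.25 and 8.83 CPM in FO controls, against 0.69, 1.28 and 0.52 CPM in FO CKO animals, and at 4.07, 5.55 and 3.67 CPM in MZ control and 0.25, 1.07 and 0.72 CPM in MZ CKO libraries. Its CKO groups were at the same low level in both subsets while the controls were higher in FO. The difference of 0.52 had an interval from -0.20 to 1.24, which leaves more than a doubling of the ratio within it, and it was 0.21 without CKO replicate 3 and 0.86 without CKO replicate 1. On the linear scale Axin2 lost 7.18 CPM in FO, its MZ mean was lower by 3.75 CPM, and the within-animal CPM differences did not overlap (exact permutation p = 0.1). Cdc40, a splicing factor gene, had a difference of 0.12 (-0.09 to 0.33), and Ostc, a subunit gene of the oligosaccharyltransferase, one of -0.06 (-0.28 to 0.16). Camkmt (-0.19, -0.53 to 0.14) and Cdca7l, the paralog of Cdca7 (0.04, -0.20 to 0.29), had no called CKO effect in either subset. Hells had a difference of 0.22 (-0.04 to 0.48) and Dnmt3b one of 0.08 (-0.18 to 0.35).

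The CKO effect was called for 21 genes in FO or in MZ, of which 13 were called in both, from libraries of the same 6 animals. Of these 21, 2 had a called difference of effects (Cdca7 and Mcoln3), against 0.0216% of all genes. An unadjusted p under 0.05 was found for 7, against 5.22% of all genes. The 21 were chosen by a call in either subset of these same libraries, so these counts are not independent of that choice. The effect was larger in FO for 11. An interval could be given for 19, and it lay within 0.5 log2 of 0 for 8 and within 1 log2 for 14. Genes called in both subsets with differences near 0 included BC018473 (0.03, -0.14 to 0.20), St6galnac1, a sialyltransferase gene next to it (0.01, -0.29 to 0.31), and the dystrobrevin gene Dtnb (0.02, -0.18 to 0.21), the last chosen after its values were seen. BC018473 was at 84.6 and 154 CPM in FO control and CKO and at 79.3 and 147 CPM in MZ, a near equal rise in both.

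Hepacam2, which encodes a cell adhesion protein, rose in both subsets with a difference of 0.10 (-0.15 to 0.35). H60b, which encodes a ligand of the NKG2D receptor, was at 12.5 and 9.28 CPM in FO control and CKO and at 14.1 and 7.29 CPM in MZ. It was called in MZ (edgeR adjusted p = 0.02832) and not in FO (adjusted p = 0.9999), and its difference of -0.53 did not pass (-0.85 to -0.22, adjusted p = 0.8183). Other genes are annotated across H60b on both strands, so its counts are uncertain. Adk, the adenosine kinase gene, chosen after its values were seen, was called in MZ (adjusted p = 0.02832) and not in FO (0.5958), with a difference of 0.30 (0.03 to 0.57, adjusted p = 0.8955). Of the 21 genes, 8 lie on chromosome 10, which also holds Zbtb24 and 4.27% of all genes tested. They are not separate loci, since H60b, Gm26581, Hmgb1-ps8, Gm26740, Gm2539 and Gm5421 lie in 1 stretch (chr10:22074237-22345792). Gm26581 and Hmgb1-ps8 are annotated inside H60b, and Gm26740 overlaps all of these 3, so reads may be shared. The pseudogenes Hmgb1-ps8 (difference -0.40, -2.05 to 1.26) and Gm5421 (-0.28, -2.16 to 1.59) are among them, chosen after their values were seen, and their near absence from control libraries leaves wide intervals.

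**Figure D4:**
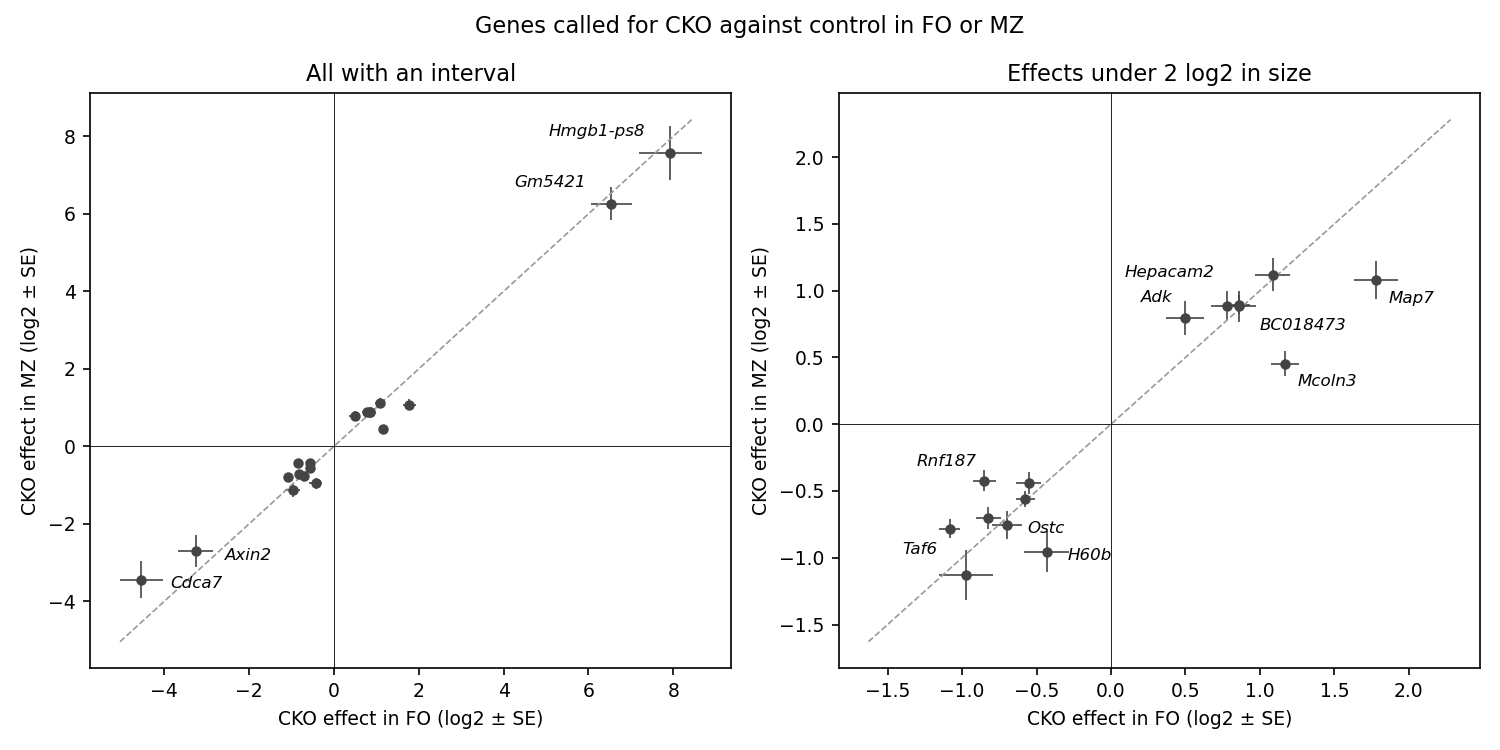
CKO effect in MZ against CKO effect in FO (log2 with SE bars) for 19 genes called in either subset, all in the left panel and the 15 with effects under 2 log2 in the right panel; the dashed line marks equal effects. Mcoln3 and Map7 lie below the line on the side of genes that rose, and Cdca7, Rnf187 and Taf6 above it on the side of genes that fell.

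Among the markers that tell the subsets apart, edgeR called 0 for a difference of CKO effects. Of 23 MZ B cell markers tested, 6 had a positive difference of effects (median -0.16), and 4 had an unadjusted p under 0.05, all lower, against 2.63% of all genes. Of 18 FO B cell markers, 14 were positive (median 0.14, but 0.08 without Control replicate 1 and 0.09 without Control replicate 3). At an unadjusted p under 0.05, 2 were higher and 1 lower, against 2.59% and 2.63% of all genes. The lower one was Cr2, the complement receptor CD21, which is on the FO list but was higher in MZ. Cr2 was at 716, 808 and 1010 CPM in FO controls, 1020, 955 and 1150 CPM in FO CKO, 3140, 3230 and 3560 CPM in MZ control and 3260, 2440 and 3860 CPM in MZ CKO libraries (difference -0.39, adjusted p = 0.8183). The MZ libraries of both genotypes overlapped, and in FO 2 of 3 CKO libraries exceeded all controls. Nebl, a nebulette gene on the MZ list, was at 2.12, 2.73 and 4.0 CPM in FO controls, 4.85, 4.46 and 5.85 CPM in FO CKO, 95.5, 78.1 and 89.0 CPM in MZ control and 98.6, 69.7 and 95.2 CPM in MZ CKO libraries. Its genotypes were apart in FO and overlapped in MZ (difference -0.78, adjusted p = 0.8955).

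Dph5, a gene of diphthamide synthesis on the MZ list, had a difference of -0.27 (adjusted p = 0.8955), and Ccr7, the chemokine receptor that leads cells to lymphoid tissue and a FO marker, one of 0.22 (adjusted p = 0.8955). The MZ marker sum was 2060 to 2380 CPM in FO controls, 2170 to 2480 CPM in FO CKO, 8060 to 8810 CPM in MZ control and 7540 to 8790 CPM in MZ CKO libraries. The genotypes overlapped in each subset. The median of the MZ list was -0.06 without Control replicate 1, -0.26 without CKO replicate 1 and between these without each other animal, so its size rested on single animals. Of 18 genes of the Notch2 pathway, 13 were positive (median 0.06) and edgeR called 0. At an unadjusted p under 0.05, 1 was higher and 1 lower, against 2.59% and 2.63% of all genes. The higher one was Nrarp, a feedback inhibitor of Notch induced by it, at 1.81 and 1.74 CPM in FO control and CKO and at 0.97 and 1.62 CPM in MZ (0.81, adjusted p = 0.8955). The lower one was the Notch target Hes1, at 30.7 and 35.4 CPM in FO and 105 and 98.9 CPM in MZ (-0.31, adjusted p = 0.8955). Notch2 itself, chosen after its values were seen, was at 844 and 847 CPM in FO and 844 and 884 CPM in MZ.

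**Figure D5:**
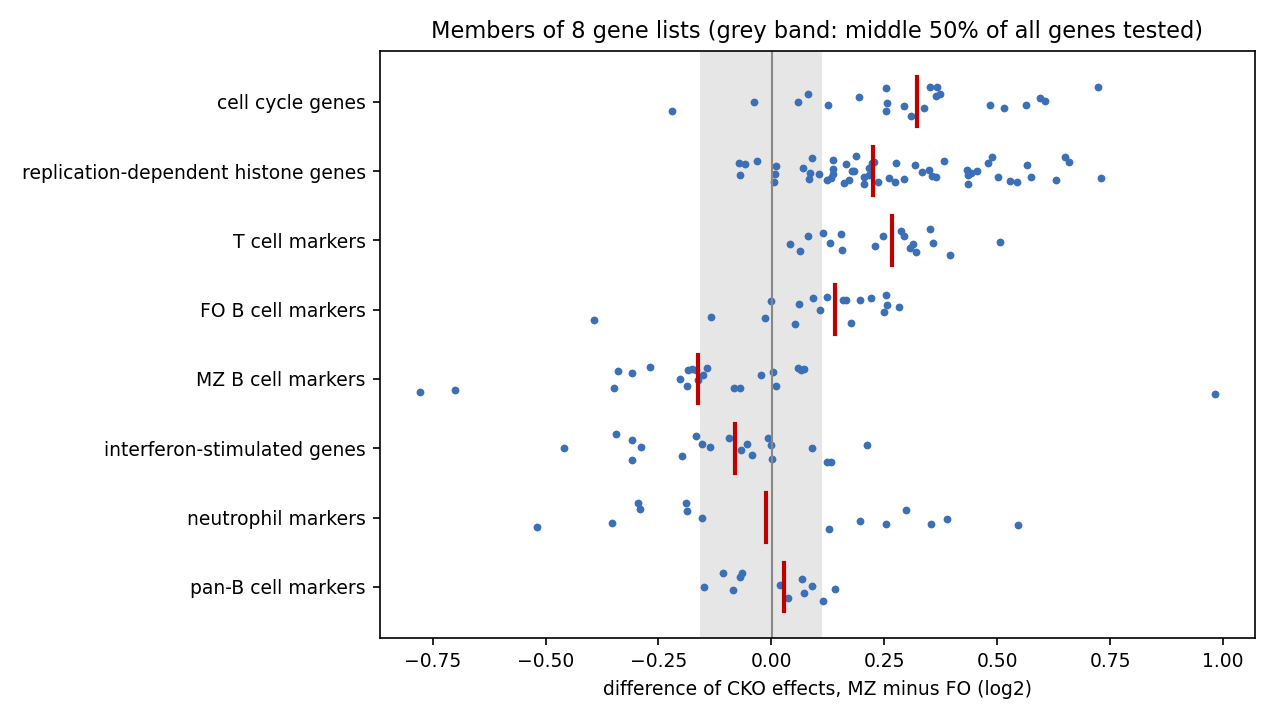
Difference of CKO effects (MZ minus FO, log2) of the members of 8 gene lists, 1 point per gene, with the list median as a red bar and the middle 50% of all genes tested as a grey band. The medians of cell cycle genes (0.32), T cell markers (0.27), histone genes (0.23) and FO markers (0.14) lie right of the band. That of MZ markers (-0.16) lies at its left edge.

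T cell markers all had a positive difference of effects, which is 18 of 18 with a median of 0.27, against 9305 of 18546 genes in all. edgeR called 0 of them, and 5 were higher at an unadjusted p under 0.05, against 2.59% of all genes. In 1 of them the within-animal step was greater in every CKO animal than in every control, against 5.05% of all genes. Lck, a T cell kinase gene also read in B cells, was at 124 and 104 CPM in FO control and CKO and at 90.9 CPM in both MZ groups (0.25, adjusted p = 0.8955). The summed T cell markers were 788, 884 and 874 CPM in FO controls, 748, 738 and 536 CPM in FO CKO, 445, 631 and 401 CPM in MZ control and 503, 548 and 354 CPM in MZ CKO libraries. FO CKO libraries all lay below FO controls, and the MZ genotypes overlapped. None of the 18 was at 0 in any group mean. The median was 0.10, with 13 of 18 positive, without Control replicate 3 and 0.43 without Control replicate 2. B-1 cell markers, which share Cd5 with this list, had 10 of 14 positive (median 0.16, 0 called by edgeR). At an unadjusted p under 0.05, 2 of them were higher, against 2.59% of all genes. Their median was 0.05 without CKO replicate 1, 0.07 without Control replicate 3, 0.08 without CKO replicate 2 and 0.26 without CKO replicate 3. Among them Tox, a factor gene of T cells and B-1 cells, had a difference of 0.97 (adjusted p = 0.8183) at levels of 1.26 to 3.50 CPM. The part of T cell RNA in these differences was not tested.

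Interferon-stimulated genes are induced by antiviral cytokines. Of 20 tested, 5 had a positive difference (median -0.08), edgeR called 0, and 4 had an unadjusted p under 0.05, all lower, against 2.63% of all genes. The within-animal step was smaller in every CKO animal than in every control for these 4, against 5.36% of all genes. In 1 other member it was greater in every CKO animal, against 5.05% of all genes. Mx1, an antiviral GTPase gene, had the smallest p. It was at 24.8, 16.7 and 32.4 CPM in FO controls, 18.0, 49.8 and 38.8 CPM in FO CKO, 48.8, 30.8 and 56.2 CPM in MZ control and 27.2, 62.4 and 50.2 CPM in MZ CKO libraries. The genotypes overlapped in both subsets, and only the within-animal step separated them (0.98, 0.88 and 0.79 log2 CPM in controls, 0.59, 0.33 and 0.37 in CKO animals). The difference of -0.46 had an adjusted p of 0.1431. The median list effect was 0.43 in FO and 0.25 in MZ, and without CKO replicate 2, which had the highest sums (1040 CPM in each subset), the median difference was -0.02, and without CKO replicate 1 it was -0.18.

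The remaining genes that the naming rule gave did not pass either. On the lower side these included Sh2d1b1, an adaptor gene of SLAM receptors, at 1.54 and 1.67 CPM in FO control and CKO and at 5.40 and 2.53 CPM in MZ (-1.25, adjusted p = 0.3262). The chromatin protein gene Hmgn3 (-0.81, 0.3778), the proteoglycan gene Agrn (-0.53, 0.5505), the interferon-inducible gene Ifi213 (-0.34, 0.6424), Ceacam16 (-0.45, 0.724) and the noncoding RNA gene Mirt1 (-0.35, 0.8183) had differences in the same direction. Shisa8 (0.80, 0.4438) had one in the other. The Toll-like receptor list had 4 of 14 positive (median -0.02), with Cd180, a receptor of the same family, at -0.27 (adjusted p = 0.8183). In it 3 members were lower at an unadjusted p under 0.05, against 2.63% of all genes. Immunoglobulin constant genes had 9 of 11 positive (median 0.14), Kruppel-like factor genes 7 of 9 (median 0.16), TFIID subunit genes 14 of 15 (median 0.07) and oligosaccharyltransferase subunit genes 9 of 12 (median 0.05). Class switch and end joining genes had 12 of 17 positive (median 0.06), and Parp1, a DNA damage sensor, had a difference of 0.25 (adjusted p = 0.8955). Plasma cell genes had 9 of 14 positive (median 0.09), ER chaperones 11 of 17 (median 0.05) and MHC class II genes 7 of 10 (median 0.05). Some of these small medians changed sign when 1 animal was left out. The median turned to -0.018 for plasma cell genes without Control replicate 3, to -0.002 for ER chaperones and -0.022 for oligosaccharyltransferase subunit genes without CKO replicate 1, and to 0.032 for Toll-like receptors without CKO replicate 3. Over the fits without 1 animal it stayed positive but ranged from 0.06 to 0.22 for immunoglobulin constant, 0.11 to 0.22 for Kruppel-like factor, 0.05 to 0.12 for TFIID subunit, 0.02 to 0.12 for class switch and 0.005 to 0.15 for MHC class II genes. In each of these lists edgeR called 0 members. At an unadjusted p under 0.05 there was at most 1 in the immunoglobulin, TFIID and plasma cell lists and 2 in the class switch list. The Kruppel-like, oligosaccharyltransferase, ER chaperone and MHC class II lists had 0. Of all genes, 5.22% had an unadjusted p under 0.05, and 9305 of 18546 had a positive difference.

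Markers of other cells were compared in the same way. Macrophage and monocyte markers had 4 of 15 positive (median -0.19), a median that turned to 0.04 without Control replicate 1. Dendritic cell markers had 2 of 13 positive (median -0.13) and NK cell markers 2 of 10 (median -0.10). Without Control replicate 2 the NK median turned to 0.05, with 6 of 10 positive, and the dendritic median was -0.05 (-0.04 without Control replicate 1). Neutrophil markers had 7 of 14 positive (median -0.01, from -0.18 to 0.12 without 1 animal), with S100a9, a calprotectin gene, at 47.9 and 82.4 CPM in FO control and CKO and at 32.5 and 45.0 CPM in MZ (-0.29, adjusted p = 0.8955). Pan-B cell markers had 7 of 12 positive (median 0.03, but -0.005 without CKO replicate 1). edgeR called 0 members of each of these lists. At an unadjusted p under 0.05 there were 3 neutrophil markers and 1 NK cell marker, all lower, against 2.63% of all genes. The macrophage, dendritic and pan-B lists had 0 at that threshold. Of all 18546 genes, 9305 had a positive difference.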

How the data were processed

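RNA of FO and MZ B cells was sequenced in 12 libraries. The authors deposited unnormalized read counts, 1 row per Ensembl gene, and the submitters' processing notes name TopHat, HTSeq and DESeq2, without versions, and build GRCm38 (mm10). The annotation release and the strand setting are not given in the sources used here. Symbols came from Gencode M21 for 45143 of 46078 genes, and 5 entries naming no gene (43.2 to 50.4% of all) were left out.

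edgeR 4.0.16 in R 4.3.3 (filterByExpr over the 4 groups, TMM, robust quasi-likelihood F test, two-sided, Benjamini-Hochberg over 18546 genes) tested the difference of CKO effects with the animal as a block. CKO effects within FO or MZ came from 4 group means without a block, since an animal has 1 genotype. That fit takes the spread from all 12 libraries as if they were separate. The FO and MZ libraries of 1 animal are not independent, so its SE and adjusted p are approximate. SE are Wald errors, and intervals are 95%. Per-animal log2 CPM used a prior count of 0.5 and an exact permutation test. The test was tried on simulated data.

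FO and MZ deviations of 1 animal correlated at 0.634 to 0.804 over 9431 genes. The members and lists were chosen with earlier results of these data known. Named genes were the ICF and target genes, the up to 10 genes per direction with the smallest p or largest fold at 5 CPM or more (leaving out predicted genes, pseudogenes and immunoglobulin segments), the 10 largest called CKO effects, and the member with the smallest p in each list (2 in FO, MZ and Notch2 lists). Not all genes the rule names are printed. Other genes were chosen after their values were seen. Tried alternatives were other blocks, DESeq2 1.42.0, limma-voom (limma 3.58.1), other scalings and filters, and leaving out each animal.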

Additional observations from a re-analysis of the deposited data

Results flagged for a closer look

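The CKO effect differed between MZ and FO B cells, by the edgeR test of the difference itself, for 4 genes. The differences (MZ minus FO, log2) were 1.141 for Cdca7, 0.631 for Hist1h4a, 0.544 for Hist1h4j and -0.717 for Mcoln3. For all 4 the within-animal MZ minus FO differences in log2 CPM of the CKO animals did not overlap those of the controls. The test that chose these genes compares the same differences, so this adds no separate support. Of all genes, 5.05% had every CKO animal above every control and 5.36% every CKO animal below. On the linear scale the within-animal CPM differences overlapped for Cdca7 and Mcoln3 and not for Hist1h4a and Hist1h4j.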

How the results depend on the processing

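The count of genes with a called difference of effects was 4 and depended on the fit. It was 0 with no replicate block, 0 with the replicate number 1 to 3 as a block in place of the animal and 0 with limma-voom, with 238, 398 and 984 genes at an unadjusted p under 0.05. It was 2 without robust dispersion, 2 with upper quartile scaling and 39 with no filter. It ranged from 2 to 31 without 1 animal: 2 without Control replicate 1, 17 without Control replicate 2, 14 without CKO replicate 2 and 31 without CKO replicate 3. Cdca7 and Mcoln3 passed in all 6 of these fits. DESeq2 called 5 genes, the same 4 and Rnf187. MZ against FO gave 4744 genes in control and 4141 in CKO mice with no replicate block. CKO against control in FO gave 40 genes with DESeq2, 38 with the replicate block and 12 to 36 without 1 animal, with 36 without CKO replicate 3. In MZ it gave 43, 42 and 13 to 40, with 40 without CKO replicate 3. The cause was not tested for these counts. The numbers 1 to 3 of different genotypes name different mice. Libraries of control and CKO mice with the same number correlated at 0.156, 0.363 and 0.298 in FO and at -0.089, 0.445 and 0.423 in MZ. Control and CKO mice with unlike numbers were not compared, and whether the number marks something shared was not tested.

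Of 1108 single-gene values under an alternative, 1098 kept their direction. The 10 that turned belong to 6 genes, none of them called. Without 1 animal, Ostc ranged from -0.154 to 0.0478, Cdca7l from -0.00181 to 0.117, St6galnac1 from -0.0839 to 0.108 (-0.0812 without Control replicate 3), Gm5421 from -0.942 to 0.184, Gm26740 from -0.0477 to 0.103 (-0.0275 without Control replicate 2) and Dtnb from -0.0382 to 0.0555. With upper quartile scaling St6galnac1 was at -0.011 and Dtnb at -0.00806. The median over all genes was at most 0.019 (DESeq2 or RLE scaling) and at least -0.023 (upper quartile).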
